A study of Mus musculus with 8 samples.

Results

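Nrep encodes neuronal regeneration related protein (P311), a small cytoplasmic protein of neurons and of some mesenchymal cells that has been tied to the production of transforming growth factor beta (TGF-beta). The genes described here are Nrep and 9 TGF-beta signalling genes, which make up 10 of the 55416 genes in the count table: the ligands Tgfb1, Tgfb2 and Tgfb3, the latency gene Ltbp3, the receptors Tgfbr1, Tgfbr2 and Tgfbr3, and the signal transducer Smad3 with the inhibitory Smad7. They were found by gene symbol, all 10 had counts in every library and all 10 passed the filter on low values. Nrep was picked because the study listed it among the lower genes in this same contrast, so its values are a description and carry no test. The other genes were picked for their place in the pathway, with earlier results of these data known.

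TGF-beta ligands are secreted in a latent form, held by a propeptide and by latent TGF-beta binding proteins such as that of Ltbp3. Once released, a ligand is bound by the type II receptor (Tgfbr2), which phosphorylates the type I receptor (Tgfbr1). The co-receptor betaglycan (Tgfbr3) presents ligand, Tgfb2 above all. The type I receptor phosphorylates Smad2 and Smad3, which enter the nucleus with Smad4, and Smad7 is itself a target gene that closes the loop by blocking the receptor. In brain the pathway acts in microglia, astrocytes, vessels and meninges as well as in neurons. P311 has been described to raise the translation of the 3 ligands, a step that mRNA counts do not measure.

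The libraries were polyadenylated RNA of mouse cerebral cortex from 4 mice with an Ago2 L192P allele (genotype AGO2_L192P/+, called L192P) and 4 wild-type mice (WT). Argonaute 2 is the protein that carries miRNAs to their targets, and L192P is a missense allele that the study modelled after a human neurodevelopmental disorder. The allele was placed in the germ line with CRISPR/Cas9 in C57BL/6JUke embryos and bred on with C57/Bl6 wild-type mice, so every cell of the cortex carries it, and 1 wild-type copy of Ago2 stays. Ages and sexes were not given in the sources used here. Total counts ran from 20396357 to 43575900 per library, and the Ago2 mRNA itself had a log2 fold change of 0.03 between genotypes.

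The libraries numbered 1 in both genotypes stood apart. Xist, which is transcribed from the inactive X chromosome, had 0.934 and 1.82 normalized counts there and 5185 to 7257 in the other 6. The summed endothelial markers were 296 and 400 there against 545 to 993. Because same-numbered libraries deviated together, fits with a replicate block and a fit of the 6 libraries numbered 2 to 4 are given where they change a result.

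The miRNAs that the study names as potential regulators of Nrep, from TargetScanMouse target predictions, set which letters to look for in the 3′ untranslated regions. Its text names miR-92-3p and a figure legend names miR-29-3p, so both families are shown, with the seed (bases 2 to 8) in capitals. These mature sequences come from RefSeq (GRCm38.p6).
mmu-miR-92a-3p: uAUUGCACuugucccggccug
mmu-miR-92b-3p: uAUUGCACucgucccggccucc
mmu-miR-29a-3p: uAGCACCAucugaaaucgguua
mmu-miR-29b-3p: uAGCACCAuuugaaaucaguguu
mmu-miR-29c-3p: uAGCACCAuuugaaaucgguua

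The letters that pair with these seeds are GTGCAAT for miR-92-3p and TGGTGCT for miR-29-3p, searched on the transcript strand only. The 3′ untranslated region of the canonical Nrep transcript (1695 bases, GENCODE M39) held no GTGCAAT and 1 TGGTGCT, at base 562 of the region. All 5 coding Nrep transcripts held the TGGTGCT and 0 of 5 held GTGCAAT. Among 4474 regions within 1.5 times the Nrep length, 7.87% held GTGCAAT and 16.5% held TGGTGCT, and over 14890 regions the shares were 8.07% and 16.7%. A match is a stretch of letters, not a shown site, and no match says only that these letters are not in this window. Shorter or shifted seed matches were not searched, so the absence of GTGCAAT does not test the prediction of the study. Of the other genes, Smad7 held 1 GTGCAAT, and Tgfb2 held 2 TGGTGCT on the minus strand of chromosome 1 (GRCm39). Both Tgfb2 stretches are shown as the only other matches to the miR-29-3p seed among the 10 genes, with the match in capitals.
Tgfb2 at chr1:186356001-186356007: attggttttttTGGTGCTcatggggtgta
Tgfb2 at chr1:186355013-186355019: gtccggttttgTGGTGCTctagtggtaaa

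Nrep (ENSMUSG00000042834, chromosome 18, 33570072 to 33597117, minus strand, GRCm39) was the most abundant of the 10 genes per length and lower in L192P cortex. Its normalized counts, which are counts divided by the size factor of the library, were 2473, 2337, 2516 and 2650 in L192P replicates 1 to 4 and 2957, 2823, 3004 and 2954 in WT. The highest L192P library stayed below the lowest WT library, and each same-numbered pair had the L192P library lower. The means were 2494 ± 129 and 2934 ± 77.5 (SD, n = 4), a log2 fold change of -0.23 (SE 0.06), or 0.85-fold. The 95% interval of the fold ran from 0.785 to 0.921. Over all 18627 tested genes, 106 (0.569%) were called lower by DESeq2 at an adjusted p under 0.05, and 551 (2.96%) had every L192P library below every WT library. Nrep was chosen from this contrast, so nothing is read from these shares.

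The fold change of Nrep moved little between ways of processing. Over 20 other settings it ran from -0.26 to -0.21, with -0.24 under a replicate block and -0.23 in the 6 libraries numbered 2 to 4. The 4 same-numbered log2 ratios were -0.26, -0.27, -0.26 and -0.16. The exons of Nrep overlap no other annotated gene. In whole cortex, fewer cells of a type and less RNA per cell cannot be told apart. The markers of cortical excitatory neurons moved the same way: 6 of 6 had a fold change below 0, none was at 0, and their summed normalized counts were 36712 to 41721 in L192P and 42428 to 44202 in WT. Slc17a7 held most of that sum, and each of the 6 genes taken singly overlapped between genotypes. None of the 6 was called by DESeq2 or edgeR, 3 had an unadjusted p under 0.05, 3 were called lower under the block and 2, Slc17a7 among them, in the 6 libraries numbered 2 to 4. Over all genes by DESeq2, 9.44% had an unadjusted p under 0.05, and 4.25% were called under the block and 3.46% in those 6 libraries. The part of these markers in the Nrep value was not tested.

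**Figure D1:**
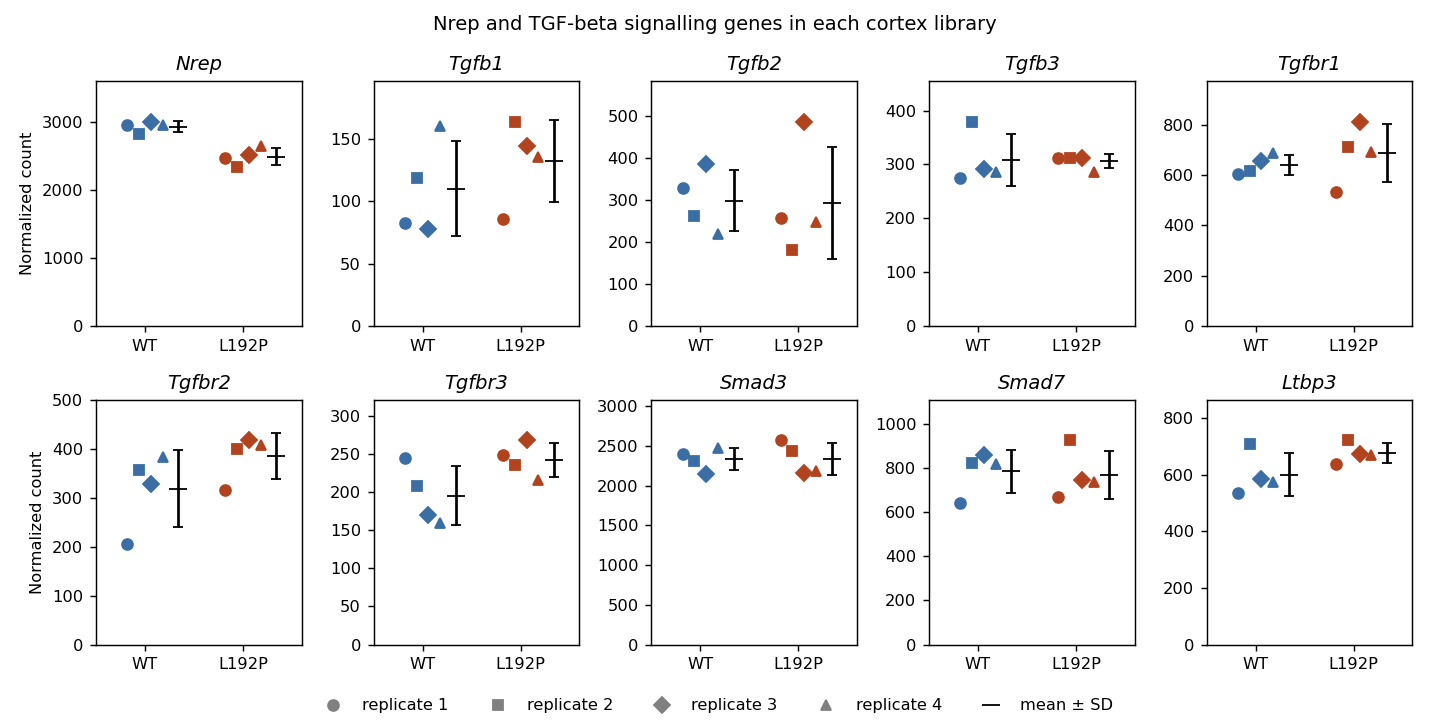
Normalized counts (vertical axes, from 0) of the 10 genes in the 4 WT and 4 L192P cortex libraries, with symbols for replicate numbers and bars for mean ± SD. The Nrep libraries do not overlap between genotypes (2337 to 2650 in L192P, 2823 to 3004 in WT), while those of the other 9 genes do.

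None of the 9 TGF-beta genes was called between genotypes. By DESeq2, 0 of 9 had an adjusted p under 0.05, against 253 of 18627 genes (1.36%) in all, and edgeR, limma-voom and limma-trend also called 0. With DESeq2, 1 of 9, Tgfbr3, had an unadjusted p under 0.05, where 9.44% of all tested genes did. In 0 of 9 did the genotypes stand apart, against 1112 genes (5.97%) in all. The median log2 fold change of the 9 was 0.10, with 6 above 0 and 3 below, beside a median of 0.0019 over all tested genes. With a replicate block, DESeq2 called 533 of 12536 genes (4.25%) and still 0 of the 9, and in the 6 libraries numbered 2 to 4 it called 500 of 14437 (3.46%) and 0 of the 9.

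The order of levels ran from Nrep through Smad3, Smad7, Tgfbr1, Ltbp3, Tgfb3, Tgfb2, Tgfbr2 and Tgfbr3 to Tgfb1. On the scale of normalized counts per kb of exon, Nrep had 633 ± 32.6 in L192P and 744 ± 19.6 in WT (SD, n = 4), and Tgfb1 had 26.0 ± 6.52 and 21.7 ± 7.51. Nrep lay at percentile 93.1 of 18538 tested genes by this measure, Smad3 at 87.3 and Tgfb1 at 33.9. From Nrep down to Ltbp3, each gene was above the next in all 8 libraries and their ranges did not overlap. Below that the neighbours ran into each other: Tgfb3 was above Tgfb2 in 6 of 8 libraries, Tgfb2 above Tgfbr2 in 5 and Tgfbr2 above Tgfbr3 in 6. Ltbp3 was above Tgfb3 in all 8 but their ranges overlapped, and Tgfbr3 was above Tgfb1 in 7.

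**Figure D2:**
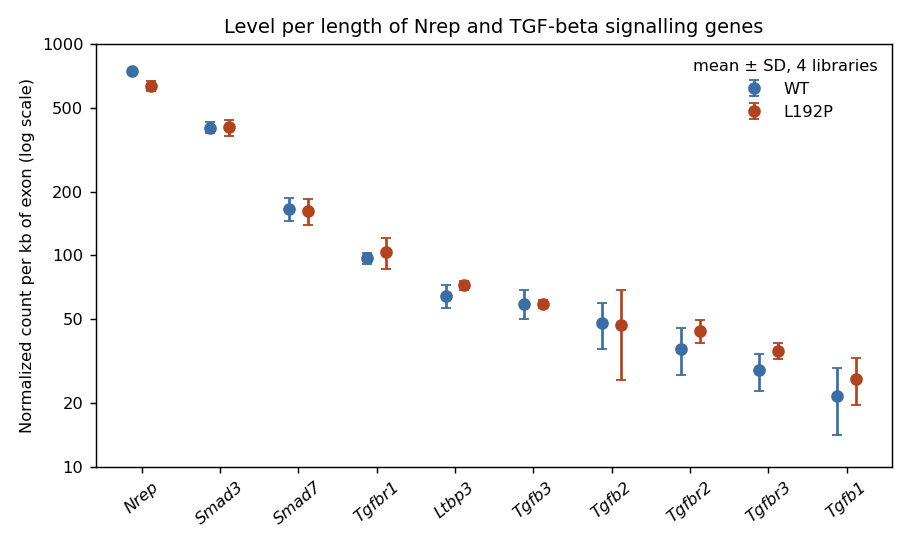
Normalized counts per kb of annotated exon (log axis) of each gene as mean ± SD over 4 libraries a genotype, in descending order. Nrep is highest (633 in L192P, 744 in WT) and Tgfb1 lowest (26.0 and 21.7).

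The 3 ligand genes overlapped between genotypes, and none passed the test. Tgfb1 (ENSMUSG00000002603, chromosome 7, 25386390 to 25404506), the ligand best known from immune cells and microglia, had 86.0, 164, 144 and 135 normalized counts in L192P and 82.9, 119, 78.2 and 160 in WT. L192P replicate 1 and WT replicates 1 and 3 were low, and WT replicate 4 was nearly as high as the highest L192P library. DESeq2 gave a log2 fold change of 0.26 (SE 0.24) and an adjusted p of 0.861, and the 95% interval of the fold ran from 0.861 to 1.67. The estimate was 0.13 without WT replicate 3, 0.14 without L192P replicate 2, 0.15 without WT replicate 1, 0.43 without L192P replicate 1 and 0.48 without WT replicate 4.

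Tgfb2 (ENSMUSG00000039239, chromosome 1, 186354985 to 186438294), the ligand that depends most on betaglycan, varied most of the 10 genes among the L192P libraries. Its normalized counts were 257, 182, 487 and 248 in L192P and 328, 263, 386 and 220 in WT. L192P replicate 3 held the highest value, WT replicate 3 the next, and the rest overlapped. Its log2 fold change was -0.03 (SE 0.35), with a fold interval of 0.61 to 1.58 and a DESeq2 adjusted p of 0.998. Without L192P replicate 3 it was -0.38, so that 1 library sets where the estimate lies.

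Tgfb3 (ENSMUSG00000021253, chromosome 12, 86102756 to 86126301), the third ligand, had 312, 312, 312 and 286 normalized counts in L192P and 274, 379, 291 and 287 in WT. The L192P libraries lay inside the WT range. The log2 fold change was -0.02 (SE 0.13), the 95% interval of the fold was 0.833 to 1.17, and the DESeq2 adjusted p was 0.993. The sign turned under other scalings and tools. Summed per kb, the 3 ligands reached 132 ± 23.1 in L192P and 129 ± 8.36 in WT (SD, n = 4), of which Tgfb3 made up 45.4% and 45.8%, Tgfb2 34.6% and 37.2% and Tgfb1 20.0% and 17.0%.

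Ltbp3 (ENSMUSG00000024940, chromosome 19, 5790932 to 5808669), whose product binds the latent ligand and holds it in the matrix, had 636, 721, 675 and 670 normalized counts in L192P and 535, 708, 586 and 574 in WT. Every L192P library was above its same-numbered WT library, but WT replicate 2 exceeded 3 of the L192P libraries. The log2 fold change was 0.16 (SE 0.10) and the adjusted p by DESeq2 was 0.671, with a fold interval of 0.977 to 1.28. Without WT replicate 2 the estimate was 0.26, and otherwise 0.11 to 0.19 with 1 library left out.

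The 3 receptor genes all had fold changes above 0, and none passed the test. Tgfbr1 (ENSMUSG00000007613, chromosome 4, 47353134 to 47414931), the type I receptor kinase, had 533, 714, 812 and 692 normalized counts in L192P and 603, 616, 655 and 688 in WT. Its L192P libraries spread on both sides of the WT range, for a log2 fold change of 0.10 (SE 0.12), a fold interval of 0.916 to 1.26 and a DESeq2 adjusted p of 0.909. The estimate was 0.014 without L192P replicate 3 and 0.21 without L192P replicate 1. Tgfbr2 (ENSMUSG00000032440, chromosome 9, 115913361 to 116004800), the ligand-binding type II receptor, had 316, 401, 417 and 408 in L192P and 205, 356, 328 and 383 in WT.

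Tgfbr2 was higher in L192P in each of the 4 same-numbered pairs, though L192P replicate 1 lay below 3 of the WT libraries. Its log2 fold change was 0.28 (SE 0.17), with a fold interval of 0.965 to 1.52. DESeq2 gave an adjusted p of 0.659, and 0.198 with the replicate block. Without WT replicate 1, the lowest library, the estimate was 0.11, and it lay between 0.24 and 0.37 with any other library left out.

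Tgfbr3 (ENSMUSG00000029287, chromosome 5, 107249402 to 107437623), the co-receptor betaglycan, had 249, 236, 268 and 216 normalized counts in L192P and 244, 207, 169 and 159 in WT. WT replicate 1 reached the L192P range and the other WT libraries lay below it. The log2 fold change was 0.30 (SE 0.15) with an adjusted p of 0.495 by DESeq2, from 0.107 to 0.89 over the other settings. In the 6 libraries numbered 2 to 4 it was 0.41 with an adjusted p of 0.202 by DESeq2. A transcript annotated on the same strand, Gm43422, shares 297 exon bases with it.

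Summed per kb, the receptors reached 153, 188, 209 and 183 in L192P and 150, 164, 161 and 171 in WT. Tgfbr1 made up 56.5% of that sum in L192P and 60.0% in WT, Tgfbr2 24.0% and 22.2%, and Tgfbr3 19.5% and 17.8%. Replicate 1 was the lowest library of both genotypes for the sum. It was also the lowest of both genotypes for Tgfbr1, Tgfbr2, Smad7 and Ltbp3 taken singly. The 8 microglial markers, from a cell type that uses these receptors, summed to 4499 in L192P replicate 1 and 6790 to 8254 in the other L192P libraries, and to 4915 in WT replicate 1 and 5990 to 6298 in the other WT libraries. Of the 8, 7 had fold changes above 0 (median log2 0.23), none was at 0, 0 were called by DESeq2 or edgeR and 3 had an unadjusted p under 0.05. DESeq2 called 1 (Cx3cr1) higher with the block and 2 (Cx3cr1 and P2ry12) in the 6 libraries numbered 2 to 4. Over all genes it called 4.25% with the block and 3.46% in those 6 libraries. Replicate 1 was also lowest in both genotypes for the summed astrocyte, oligodendrocyte, endothelial and mural markers, but not for the other marker lists. The medians of those lists were log2 -0.02, -0.12, 0.26 and 0.07, in the order named. The part of these cell types in the receptor values was not tested.

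Smad3 and Smad7 overlapped between genotypes, with fold changes near 0. Smad3 (ENSMUSG00000032402, chromosome 9, 63554049 to 63665476), the transducer, had 2568, 2435, 2156 and 2183 normalized counts in L192P and 2392, 2314, 2145 and 2470 in WT. These ranges overlapped almost whole, and the log2 fold change of 0.0039 (SE 0.08) was the smallest of the 10, with a fold interval of 0.904 to 1.11 and a DESeq2 adjusted p of 0.998. Smad7 (ENSMUSG00000025880, chromosome 18, 75500374 to 75529006), the inhibitor that the pathway induces, had 669, 926, 746 and 735 in L192P and 644, 824, 861 and 818 in WT. Both replicate 1 libraries were lowest, and the log2 fold change was -0.03 (SE 0.12) with a fold interval of 0.834 to 1.15 and a DESeq2 adjusted p of 0.985.

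**Figure D3:**
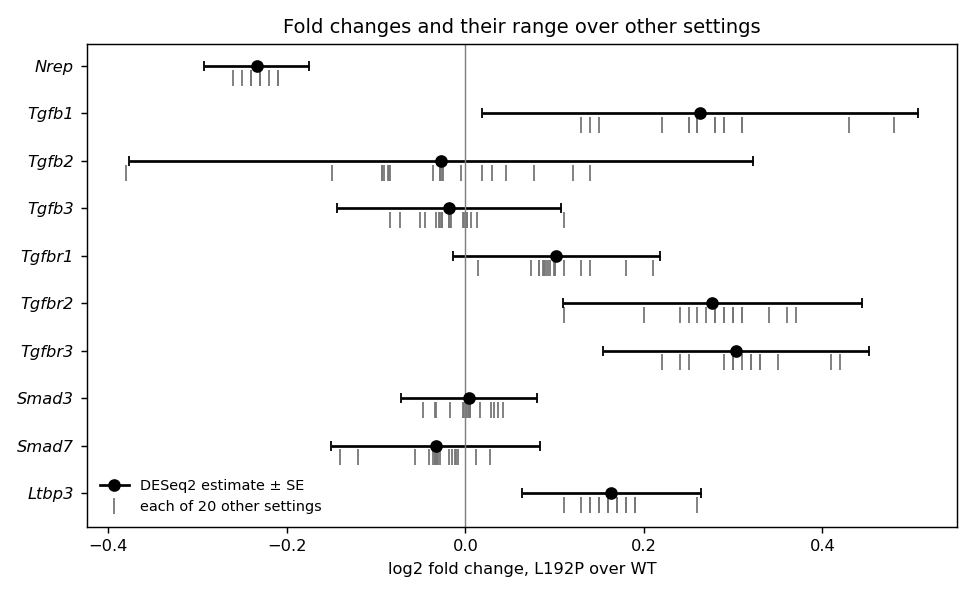
Log2 fold change of L192P over WT (horizontal axis) for each gene, as the DESeq2 estimate ± SE (black) with a tick for each of 20 other settings below it. The Nrep ticks all lie between -0.26 and -0.21, while those of Tgfb2, Tgfb3, Smad3 and Smad7 fall on both sides of 0.

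Another 86 genes of the TGF-beta superfamily and its responses were taken by their role, and 83 were tested. DESeq2 called 2 of 83, Bmp7 higher and Cdkn1a lower, against 147 (0.789%) higher and 106 (0.569%) lower over all genes, and edgeR called 0. Of the 83, 16 (19.3%) had an unadjusted p under 0.05, against 9.44% of all tested genes, 45 lay above 0 and 38 below, and the median log2 fold change was 0.01. The genotypes stood apart in 3 with L192P higher and in 3 with L192P lower, against 5.97% of all tested genes in either direction. With the replicate block, where 4.25% of all genes were called, DESeq2 called 5 of 66 tested: Bmp7, Cdkn1a, Col1a2, Acvr2a and Ccn2. By DESeq2, Col1a2 was higher (adjusted p 0.115 without and 0.0255 with the block), and so was Acvr2a (0.57 without and 0.0365 with). Ccn2 was lower (0.124 without and 0.0338 with the block). On the other strand, Orc4 shares 3081 exon bases with Acvr2a, Gm66266 1308 with Col1a2 and Gm15270 1164 with Ccn2. In the 6 libraries numbered 2 to 4, DESeq2 called 3 of 75 tested, Bmp7, Col1a2 (adjusted p 0.00811) and Fn1 (0.0271), all higher, where 3.46% of all genes were called. Gdf1 was at 0 in every library, and Itgb6 and Tagln got no adjusted p. All 2836 exon bases of Gdf1 are shared with Cers1 on the same strand, so its 0 does not show that the gene is silent. The lists were put together with results of these data known.

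**Figure D4:**
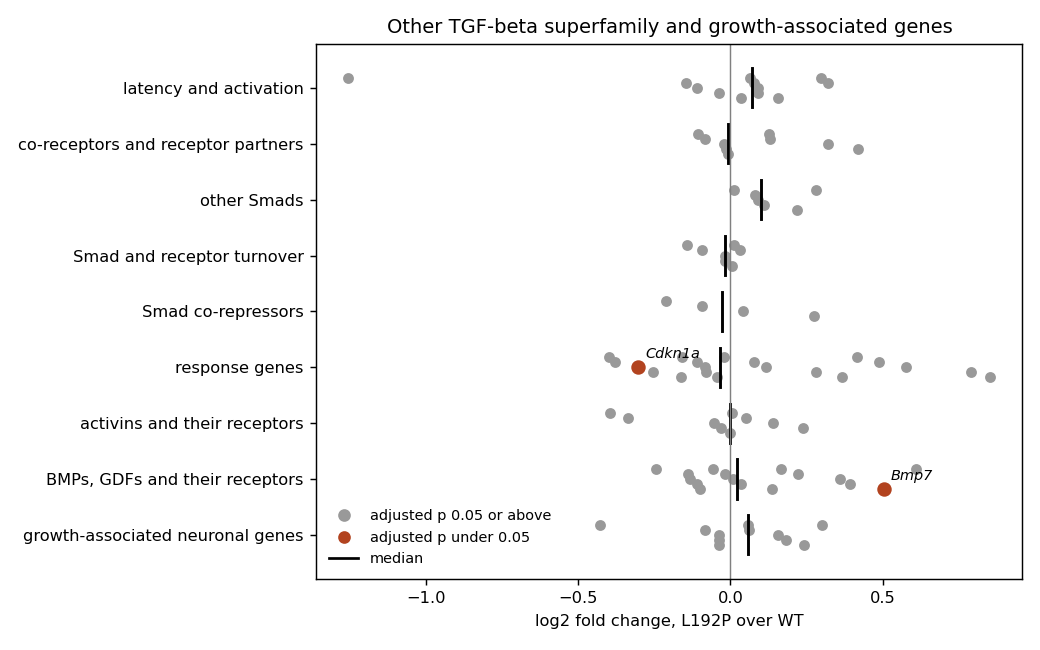
Log2 fold change of L192P over WT for 83 tested superfamily genes in 8 lists and 11 tested growth-associated neuronal genes, 1 point a gene, with black bars for list medians. Most points lie near 0, and Bmp7 (0.50) and Cdkn1a (-0.30) are the ones with a DESeq2 adjusted p under 0.05.

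Bmp7 (ENSMUSG00000008999, chromosome 2, 172709805 to 172782410), a bone morphogenetic protein made in brain by meninges among other cells, had 288, 364, 377 and 304 normalized counts in L192P and 233, 258, 219 and 225 in WT. Every L192P library was above every WT library. The log2 fold change was 0.50 (SE 0.12), 1.42-fold, with an adjusted p of 0.00881 by DESeq2 and 0.0881 by edgeR. The call was lost by DESeq2 without L192P replicate 2 (adjusted p 0.0925) or 3 (0.104) or WT replicate 3 (0.0798) or 4 (0.0736).

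The 6 markers of meningeal fibroblasts all lay above 0 as well, with a median log2 fold change of 0.73 and none at 0. Their summed normalized counts were 867, 1437, 1534 and 1158 in L192P and 932, 913, 695 and 627 in WT, so that L192P replicate 1 fell inside the WT range. DESeq2 called 2 of 6, Aldh1a2 (log2 0.80, adjusted p 0.00195) and Slc6a13 (log2 0.81, adjusted p 0.0229), and edgeR called 0. Over all tested genes DESeq2 called 1.36%. In the 6 libraries numbered 2 to 4 DESeq2 called 4 of 6, with Lum (adjusted p 0.00304) and Ogn (0.00317) added. That fit was chosen after seeing the data and called 3.46% of all genes. Among the response genes, Col3a1 (log2 0.85, SE 0.40, adjusted p 0.45 by DESeq2) and Col1a2 are collagens that these cells make. The part of meningeal cells in the values of Bmp7 and the collagens was not tested.

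**Figure D5:**
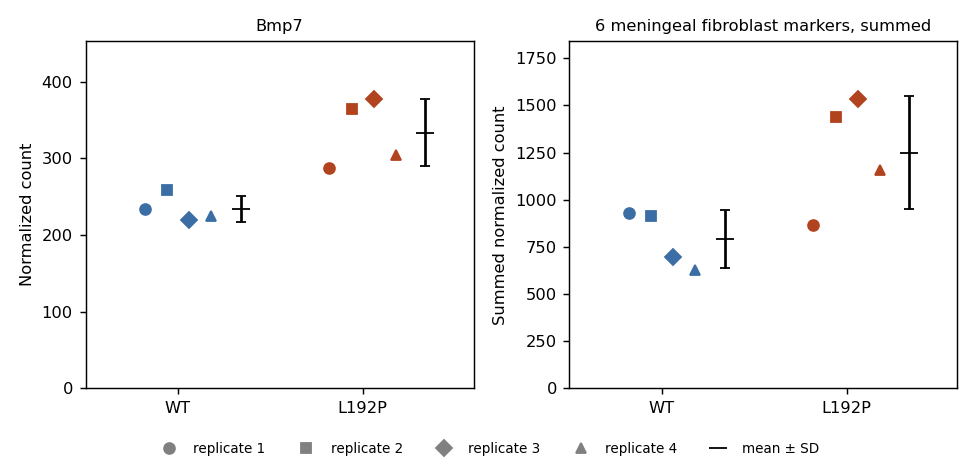
Normalized counts of Bmp7 (left) and of 6 meningeal fibroblast markers summed (right) in each library, with mean ± SD. Bmp7 is 288 to 377 in L192P and 219 to 258 in WT, and the marker sum is 867 to 1534 and 627 to 932.

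Cdkn1a (ENSMUSG00000023067, chromosome 17, 29309936 to 29319701) encodes the cell cycle inhibitor p21, which TGF-beta and also p53 induce. Its normalized counts were 607, 699, 620 and 603 in L192P and 764, 795, 793 and 763 in WT, with every L192P library below every WT library. It had a log2 fold change of -0.30 (SE 0.08), 0.811-fold, with an adjusted p of 0.0163 by DESeq2 and 0.0961 by edgeR. DESeq2 lost the call without any 1 of L192P replicates 1 (adjusted p 0.0811), 3 (0.121) and 4 (0.132) or WT replicates 2 (0.131), 3 (0.134) and 4 (0.0862), and in the 6 libraries numbered 2 to 4 (0.0682). Annotated transcripts on the other strand, Dino among them, overlap its exons.

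The remaining response genes went in both directions. Of 19 tested besides Cdkn1a, 9 lay above 0 and 10 below, with a median of -0.02 and 6 at an unadjusted p under 0.05. Tsc22d1, the most abundant, had 13506 ± 344 normalized counts in L192P and 13934 ± 517 in WT (SD, n = 4). Ccn2, a matricellular protein gene often read as a TGF-beta response, had 361 ± 58.0 and 476 ± 68.9 (SD, n = 4).

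Genes that act beside the receptors and on the ligands gave 0 calls by DESeq2 or edgeR in each list. In latency and activation (12 tested, 0 at an unadjusted p under 0.05, median log2 0.07), the integrin gene Itgav was most abundant, with 2233 ± 264 in L192P and 2409 ± 320 in WT (SD, n = 4), and Ltbp2 had the largest fold change at only 4.07 and 9.80 normalized counts (log2 -1.25, SE 0.66). Among co-receptors and receptor partners (9 tested, 2 at an unadjusted p under 0.05), Fkbp1a, whose product FKBP12 holds the type I receptor inactive, had 18723 ± 545 and 20142 ± 703 (SD, n = 4) and did not overlap between genotypes. Its DESeq2 adjusted p was 0.435. Dab2, an endocytic adaptor of the receptors, had 283 ± 70.8 and 211 ± 17.6 (SD, n = 4) and a DESeq2 adjusted p of 0.252.

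The other Smad genes were all above 0, with log2 fold changes from 0.01 to 0.28. Of 6, 0 were called by DESeq2 or edgeR, 1 had an unadjusted p under 0.05 (Smad9) and the median log2 fold change was 0.10. Smad9 (log2 0.22, DESeq2 adjusted p 0.345) had every L192P library above every WT library. Smad4, the partner shared by all branches, had 1135 ± 79.5 normalized counts in L192P and 1128 ± 45.8 in WT (SD, n = 4), and Smad6, an inhibitor of the BMP branch, had 52.8 ± 14.8 and 43.1 ± 9.78 (SD, n = 4). Among 7 turnover genes (0 called by DESeq2 or edgeR, 1 at an unadjusted p under 0.05) the phosphatase gene Ppm1a had a log2 fold change of -0.02 and the ubiquitin ligase gene Nedd4l -0.14. Among 4 co-repressors (0 called by either, 0 at an unadjusted p under 0.05), Ski had -0.09 and Tgif1 0.28.

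In the activin list 0 of 9 were called by DESeq2 or edgeR and 2 had an unadjusted p under 0.05. The receptor gene Acvr1b had a log2 fold change of 0.0041, and Fst, whose product follistatin traps activins, had 90.6, 83.1, 81.9 and 101 normalized counts in L192P and 123, 130, 111 and 102 in WT, with a DESeq2 adjusted p of 0.345. In the BMP list of 16 tested, where Bmp7 was the 1 call, Bmpr2 had a log2 fold change of 0.03 and the antagonist gene Grem1 0.61 (SE 0.26, DESeq2 adjusted p 0.355). Grem1 did not overlap between genotypes.

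Nrep is also counted among growth-associated genes of neurons, and 11 of 12 such genes were tested beside it. DESeq2 and edgeR called 0 of 11 and 2 had an unadjusted p under 0.05, Sox11 and Jun, both with fold changes above 0. Sox11 did not overlap between genotypes. The median log2 fold change was 0.06. Under the block DESeq2 called Gap43 (adjusted p 0.0171) and Jun (0.0382), both higher, and it called the same 2 genes in the 6 libraries numbered 2 to 4 (0.01 and 0.0173). Over all genes by DESeq2, 9.44% had an unadjusted p under 0.05, and 4.25% were called under the block and 3.46% in those 6 libraries. Basp1, the most abundant, had 17521 ± 665 normalized counts in L192P and 17968 ± 1108 in WT (SD, n = 4), and the injury-induced factor gene Atf3 had 21.6 ± 5.68 and 28.7 ± 10.3 (SD, n = 4).

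The genes whose pattern within genotypes was most like that of Nrep lay outside the pathway. Pearson's r of log2 normalized counts plus 1, after subtracting the mean of each genotype, was 0.992 for Washc4, 0.986 for Actr3-ps, 0.979 for Gm5124 and 0.973 for Snrnp35 over the 8 libraries and 13421 genes. Actr3-ps is a pseudogene whose reads may come from its parent. These 4 genes had log2 fold changes between genotypes of -0.03 to 0.14. These values describe 8 libraries that share replicate numbers. They are the highest of 13421 genes, so high values of r were picked by the ranking itself. With only 9 TGF-beta genes among 13421, top places outside the pathway say little about it. Of the 9 TGF-beta genes, Tgfb2 was nearest to Nrep (r 0.425, place 2079), and the lowest were Ltbp3 (-0.547) and Tgfb3 (-0.597).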

How the data were processed

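Poly(A) libraries of 4 L192P and 4 WT cortices were made by the authors with a stranded kit. Per the submitters' processing notes reads were aligned with STAR 2.7.9a and counted per gene with featureCounts 1.5.1 (GRCm39); the strand setting and annotation release were not given in the sources used here. The deposited tables held raw read counts and a normalized signal, the counts divided by DESeq2 size factors (products differed from the counts by at most 2.9e-10). The test here was DESeq2 1.42.0 in R 4.3.3 on the deposited counts, Wald test of genotype with independent filtering and Benjamini-Hochberg adjustment over 18627 of 32676 genes with counts. Alternatives used edgeR 4.0.16 (quasi-likelihood), limma 3.58.1 (voom, and trend with a pseudocount of 1 or 0.5), other size factors and filters, a replicate block and omitted libraries. The p-values set the difference between genotypes against the spread between the 4 libraries of a genotype, which DESeq2 estimates with help from other genes. In the fit of genotype only, that spread includes the difference of the replicate 1 libraries from the others. Depth was 20396357 to 43575900 counts per library.

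Same-numbered libraries of the 2 genotypes deviated together from their group means (r 0.628, 0.381, 0.233 and 0.327 over 13422 genes, other pairs -0.375 to 0.144). The main fit held genotype only and did not use this pairing, and the numbers entered as a block in alternative fits. The genes and lists were chosen with earlier results of these data known. The text names the 10 genes, the genes most like Nrep in pattern (of 5, 1 is not reported here), and from each list those with an adjusted p under 0.05, the most abundant and the one with the largest fold change; Smad9, Sox11, Jun, Gap43, Ccn2, Col1a2, Acvr2a, Fn1, Cx3cr1, P2ry12, Slc17a7, Lum, Ogn, Pvalb, Hbb-bs, Hba-a1 and Sprr1a were named after their values were seen. Levels per kb used the exon length of GENCODE M39. On simulated counts for 32676 genes, with 200 changed by 1 on the log2 scale between L192P and WT, DESeq2 recovered 97.5%, edgeR 96% and DESeq2 with a block 94%. The changed genes were drawn from those with higher counts, and no replicate structure was simulated. A change of 1 is larger than that of any of the 10 genes. These shares therefore do not give the power to find changes of the size seen here.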

Additional observations from a re-analysis of the deposited data

Results flagged for a closer look

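In 7 of 66 groups of 4 libraries screened, 1 library lay far from the other 3, where about 3.3 such groups would arise by chance. Tgfb3 was 286.29 normalized counts in L192P replicate 4 against 311.81 to 312.46 in the others, and 379.04 in WT replicate 2 against 274.09 to 291.13. Tgfbr2 was 315.77 in L192P replicate 1 against 400.57 to 417.39. In the same library Smad4 was 1253.8 against 1082.2 to 1104.6 and Atf3 was 13.079 against 23.957 to 25.036. Basp1 was 19625 in WT replicate 1 against 17301 to 17496, and Aldh1a2 was 180.28 in WT replicate 4 against 236.81 to 244.04.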

How the results depend on the processing

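Nrep stayed between -0.26 and -0.21 and the 9 TGF-beta genes stayed at 0 calls in all 20 alternatives. Over all genes, where DESeq2 called 253, edgeR called 53, limma-voom 45, limma-trend 51 with either pseudocount, DESeq2 with the replicate block 533, edgeR with the block 513 and DESeq2 on the 6 libraries numbered 2 to 4, chosen after seeing the data, 500. Leaving out 1 library gave 112 (without WT replicate 4) to 496 (without WT replicate 1). Of the 83 other pathway genes, 2 by DESeq2, edgeR, limma-voom and both limma-trend fits called 0, the block called 5 with DESeq2 and 4 with edgeR, and leaving out 1 library gave 0 to 3. The block changed no call of the 9 genes. Fold changes near 0 turned sign: Tgfb2 ran from -0.38 to 0.14 with 1 library left out and was 0.077 in the 6 libraries; Tgfb3 was 0.0012 by limma-trend with either pseudocount, 0.0066 with total-count size factors and -0.073 to 0.11 with 1 library left out; Smad3 was -0.0030 with TMM size factors, -0.034 in the 6 libraries and -0.047 to 0.042 with 1 left out; Smad7 ran from -0.14 to 0.028. The causes were not tested. The intervals show what 4 libraries a genotype can tell: for Tgfb2 a fold from 0.61 to 1.58 cannot be told apart from 1, and for Smad3 one from 0.904 to 1.11.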

Other observations

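Sprr1a, a gene induced in injured neurons, got no adjusted p and was named after its values were seen. It had 0 counts in the 4 L192P libraries and 0.911, 4.52, 4.35 and 7.02 normalized counts in WT, a level too low for a fold.

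Astrocyte, endothelial, mural, oligodendrocyte and choroid plexus markers (6 each) and 5 blood markers gave 0 calls by DESeq2 or edgeR and 0 at an unadjusted p under 0.05. In the 6 libraries numbered 2 to 4, DESeq2 called 2 of the 5 blood markers higher, Hbb-bs (adjusted p 8.84e-07) and Hba-a1 (0.00139), whose near-identical copies make their counts uncertain. That fit called 3.46% of all genes. All 6 oligodendrocyte markers lay below 0, with a median log2 fold change of -0.12. Their summed normalized counts in L192P and WT were 15976 to 24576 and 17418 to 23417 for astrocytes, 16605 to 38173 and 14342 to 32547 for choroid plexus, and 1374 to 3230 and 1543 to 2371 for blood. The choroid plexus sum varied more than 2-fold within each genotype. Of 6 GABAergic markers, DESeq2 called Gad2 higher (log2 0.34, adjusted p 0.0235), which edgeR did not (0.155). Over all tested genes DESeq2 called 1.36%. Pvalb lay below 0 (log2 -0.22), and its DESeq2 adjusted p was 0.121 without and 0.00907 with the replicate block.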
